A study of Mus musculus with 2 samples.

Results

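Genes of the triad junction and the calcium store of skeletal muscle were followed in the gastrocnemius, the main calf muscle, of mice in a plaster cast and of control mice. These 10 genes were Jph1, Jph2, Sypl2, Stac3, Fkbp1a, Trdn, Asph, Casq1, Srl and Hrc, and they were found as the probes outside the array's controls that carry those names on both arrays. They were read by 16 of 39429 probes, and all 10 genes were among the 15135 genes measured on both arrays. The cast group was male C57BL/6 wild-type mice, 9 weeks old, with a hindlimb held still in a plaster cast over 11 days. The control group was male C57BL/6 wild-type mice of the same age, and the labels give no treatment for them. The labels were taken to mean that each group's RNA is a pool of 6 mice, and 1 array was hybridised per pool. With 1 array per group there is no replicate, no test and no measure of the spread between mice, and every difference below compares these 2 pools.

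A triad is the place where a transverse tubule, an infolding of the surface membrane, lies between a pair of sacs of the sarcoplasmic reticulum, the calcium store of the fibre. A voltage sensor in the tubule (Cacna1s) opens the calcium release channel of the reticulum (Ryr1), and the released calcium starts contraction. Junctophilins hold the membranes together, triadin and junctin tie the release channel to calsequestrin, and calsequestrin holds calcium in the store. Triads serve every twitch of a fast muscle such as the gastrocnemius.

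The array reads each gene through probes of 60 bases, and a few of them show which piece of the message was read. Whole probes are given for 4 that read as stretches of the known proteins, in a frame recognised by eye and not looked up in gene models. An open frame alone does not establish that a probe is coding. The Casq1 and Asph probes are shown because they fall in stretches rich in acidic residues, the kind of stretch that binds calcium, and the capitals mark codons for aspartate and glutamate. In the Trdn probe the capitals mark lysine codons, which are frequent in triadin's part inside the store. In the Fkbp1a probe the capitals mark the start codon, so its first 24 bases precede the protein.
Casq1: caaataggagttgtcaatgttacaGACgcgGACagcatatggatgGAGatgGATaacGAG
Asph, brightest probe: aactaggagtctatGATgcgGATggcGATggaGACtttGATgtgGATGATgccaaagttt
Trdn, second probe: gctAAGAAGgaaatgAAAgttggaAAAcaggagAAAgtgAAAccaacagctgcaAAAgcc
Fkbp1a, brighter probe: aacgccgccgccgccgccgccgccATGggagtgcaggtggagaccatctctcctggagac

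Of the 20 codons of the Casq1 probe 5 were acidic, and of the 19 of the Asph probe 7 were. Of the 20 codons of the Trdn probe 7 were for lysine. The first 30 bases are given for Jph1, the gene furthest above control in cast muscle, and for Jph2 and Sypl2, the furthest below. They are also given for the Asph probe that went its own way. All are in lower case throughout, because no known protein stretch was recognised in them.
Jph1: ttgaatattgggttggccattctttttgtt
Jph2: tcggacctaaaaccttgctcacatccactc
Sypl2, brighter probe: ttcctatccctcatcctgctggggcagcaa
Sypl2, second probe: tctgcgtctatatttataatttatttgaac
Asph, dimmest probe: gaaagccatcttgctcctcaagatgatcat

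The Sypl2 probes lie 1379 bases apart on the genome, so they read separate pieces of the gene. Probe positions are those of the scanner files, on mm9, and no mm9 gene models were used, so exon, coding and untranslated placement were not looked up. The Casq1 probe spans 1504 bases of the genome with its 60 bases, so it joins pieces that are apart in the gene.

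Levels are given as relative signal, the processed intensity of a probe divided by the 75th percentile of its array, which was 486 for cast and 385 for control. A log2 ratio is the log2 of the relative signal on the cast array over that on the control array. Levels of different probes are not comparable with each other. All 16 probes were well above background on both arrays, none was saturated, and each was printed as 1 spot. Their technical error was therefore taken in 2 ways. Replicated probes of like brightness put the spot-level SD at 0.08 to 0.15 for a log2 ratio, and the scanner software's own error gave a larger SD of 0.20 to 0.22. Neither covers the spread between animals or between hybridisations. In whole muscle, fewer cells of a type and less RNA per cell cannot be told apart.

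Of the genes that build the junction, one junctophilin was higher in cast muscle and the other was lower. Jph1, the junctophilin of skeletal muscle triads, had a relative signal of 2.43 in cast and 1.93 in control muscle, from a probe at chr1:16987545-16987604 on the minus strand. It was 1.26-fold higher in cast muscle, a log2 ratio of 0.33, which is 1 to 2 times the software's SD. Jph2, the junctophilin shared with heart, had a relative signal of 2.04 in cast and 4.21 in control muscle, from a probe at chr2:163163526-163163585 on the minus strand. It was 2.06-fold lower in cast muscle, a log2 ratio of -1.04. In unscaled processed intensity the order was the same, with Jph1 at 1183 in cast and 743 in control muscle, and Jph2 at 994 in cast and 1620 in control muscle.

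The log2 ratio of Jph1 lay 1.38 above that of Jph2, with a spot-level SD of 0.12. A difference between genes on the same arrays does not move with a plain rescaling, and over the 13 settings computed it ranged from 1.34 to 1.39. Jph1 and Jph2 have 1 probe each, so the changes of probe rule, filter and names could not move this difference. The range was the narrowest among the 6 pairs of genes that were set against each other, most of which include a gene with several probes.

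Sypl2, or mitsugumin 29, is a membrane protein of the tubule and the triad that is related to synaptophysin. Its brighter probe, at chr3:108017190-108017249 on the minus strand, had a relative signal of 2.19 in cast and 6.05 in control muscle. Its second probe, at chr3:108015752-108015811, had 2.35 in cast and 4.21 in control muscle. Both probes were lower in cast muscle, by 2.76-fold and by 1.79-fold, with log2 ratios of -1.46 and -0.84. The probes differ by 0.62, and 10.02% of the 3493 genes with several measured probes had a range as wide, so the direction was the same in both while the size depends on the probe. The mean of both probes gave -1.15.

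**Figure D1:**
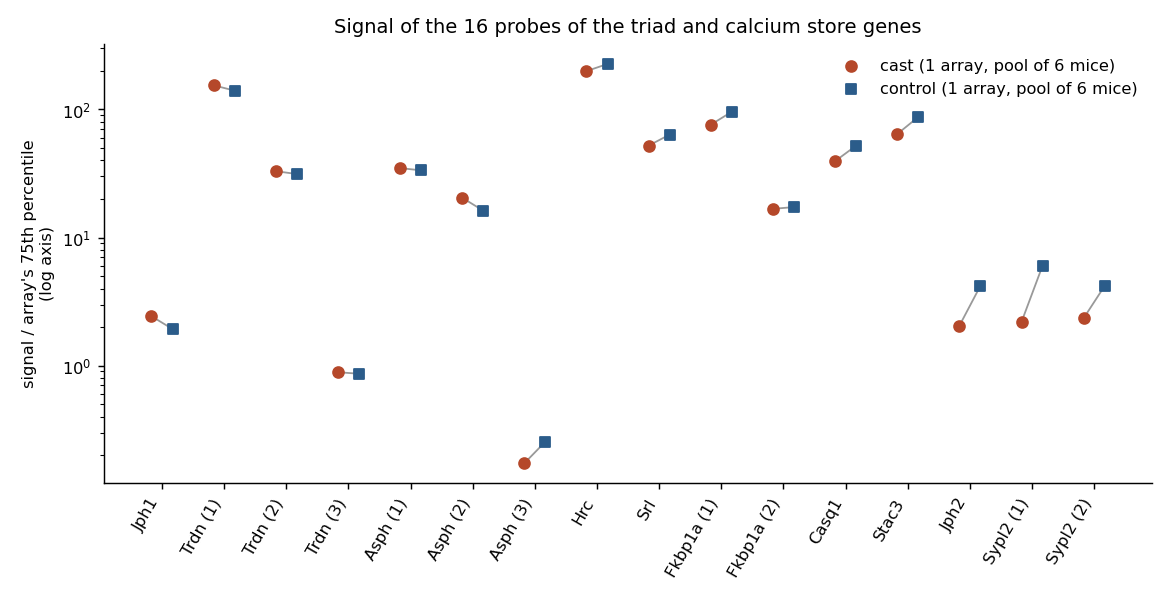
Relative signal (log axis) of each of the 16 probes on the cast array and on the control array, with a line joining the points of 1 probe; numbers in brackets run from a gene's brightest probe to its dimmest. Jph2 and both Sypl2 probes have their cast point clearly below their control point, Jph1 has it above, and the points of Trdn nearly coincide.

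Next are the proteins that work on the voltage sensor and the release channel. Stac3, the adaptor that the voltage sensor needs for coupling and for reaching the tubule, had a relative signal of 64.2 in cast and 87.5 in control muscle, from a probe at chr10:126945799-126945858. It was 1.36-fold lower in cast muscle, a log2 ratio of -0.45. Fkbp1a, or FKBP12, binds the release channel and steadies its closed state, and it also has partners outside muscle. Its brighter probe, at chr2:151368420-151368479, had a relative signal of 76.0 in cast and 96.1 in control muscle, a log2 ratio of -0.34. The second probe, 18886 bases away, had 16.7 in cast and 17.3 in control muscle, a log2 ratio of -0.05, which is within the spot-level SD. The lower value of Fkbp1a in cast muscle was thus seen with the probe over the start codon and hardly with the other.

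Trdn and Asph, which encode the anchors of the release complex, differed little on most of their probes. Trdn, triadin, had 3 probes, and in none was the difference as large as the software's SD. The brightest Trdn probe, at chr10:32919981-32920040, had a relative signal of 154 in cast and 140 in control muscle, a log2 ratio of 0.14. The second, at chr10:32915796-32915855, had 33.0 in cast and 31.3 in control muscle, a log2 ratio of 0.07. The third lies 274224 bases from the nearest of the others and had 0.888 in cast and 0.864 in control muscle, a log2 ratio of 0.04. The range over the 3 probes was 0.10, and 68.6% of genes with several probes had one as wide.

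Asph encodes an aspartyl beta-hydroxylase and, from the same gene, the shorter store proteins junctin and junctate, and which of these a probe detects was not determined. The brightest Asph probe, at chr4:9563054-9563113 on the minus strand, had a relative signal of 34.9 in cast and 33.5 in control muscle, a log2 ratio of 0.06. The second, 14927 bases away, had 20.5 in cast and 16.2 in control muscle, a log2 ratio of 0.34. Both are described in the files as transcript variant 2. The dimmest, described as transcript variant 1, lies at chr4:9379226-9379285, 168783 bases from the second, and had 0.173 in cast and 0.255 in control muscle, a log2 ratio of -0.56 with a spot-level SD of 0.15.

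The Asph probes thus ranged over 0.90, and 3.78% of genes with several probes had a range as wide. That dimmest probe also had the lowest signal of the 16, with a processed intensity of 84.0 in cast and 98.3 in control muscle. With normexp background correction its log2 ratio was -0.37, and with no scaling it was -0.23.

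The genes of the proteins that hold calcium inside the store differed by less than 1.5-fold, with log2 ratios below 0 that for Srl and Hrc turned above 0 in 2 of the 13 settings. Casq1, calsequestrin 1, the main calcium buffer of the store in fast fibres, had a relative signal of 39.5 in cast and 52.2 in control muscle, from a probe within chr1:174140602-174142105 on the minus strand. It was 1.32-fold lower in cast muscle, a log2 ratio of -0.41. Srl, sarcalumenin, a calcium-binding glycoprotein of the store, had 52.2 in cast and 63.7 in control muscle, a log2 ratio of -0.29, from a probe at chr16:4480455-4480514. Hrc, the histidine-rich calcium-binding protein, which binds triadin from inside the store, had 199 in cast and 227 in control muscle, a log2 ratio of -0.19, from a probe at chr7:52594281-52594340. Casq1 and Srl differed by 1 to 2 times the software's SD of 0.20, and Hrc by less than 1.

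Casq1 was set against Trdn and Asph, genes of proteins that tie it to the release channel. The log2 ratio of Trdn lay 0.54 above that of Casq1, between 0.49 and 0.57 over the 13 settings. That of Asph lay 0.46 above it, between 0.35 and 0.58. Both differences stayed above 0 in these settings, though a plain rescaling could not move them. Their spot-level SD was 0.11, and they were 1 to 2 times the software's SD of a difference, 0.29. For Asph the difference uses its brightest probe or the mean of its probes, and its dimmest probe, at -0.56, lay below Casq1, at -0.41.

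From the highest to the lowest log2 ratio the genes ran Jph1, Trdn, Asph, Hrc, Srl, Fkbp1a, Casq1, Stac3, Jph2 and Sypl2. Of the 9 pairs of neighbours in this order, 5 were less than 1 spot-level SD apart, among them every step from Hrc to Stac3. The steps from Stac3 to Jph2 and from Jph2 to Sypl2, of 0.60 and 0.42, were the 2 that exceeded the software's SD of a difference, 0.29. So Jph2 and Sypl2 stood apart from the rest of the genes, and the order of the middle ones is not resolved. The order of Jph2 and Sypl2 depends on the probe, since the second Sypl2 probe, at -0.84, lay above Jph2, at -1.04.

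**Figure D2:**
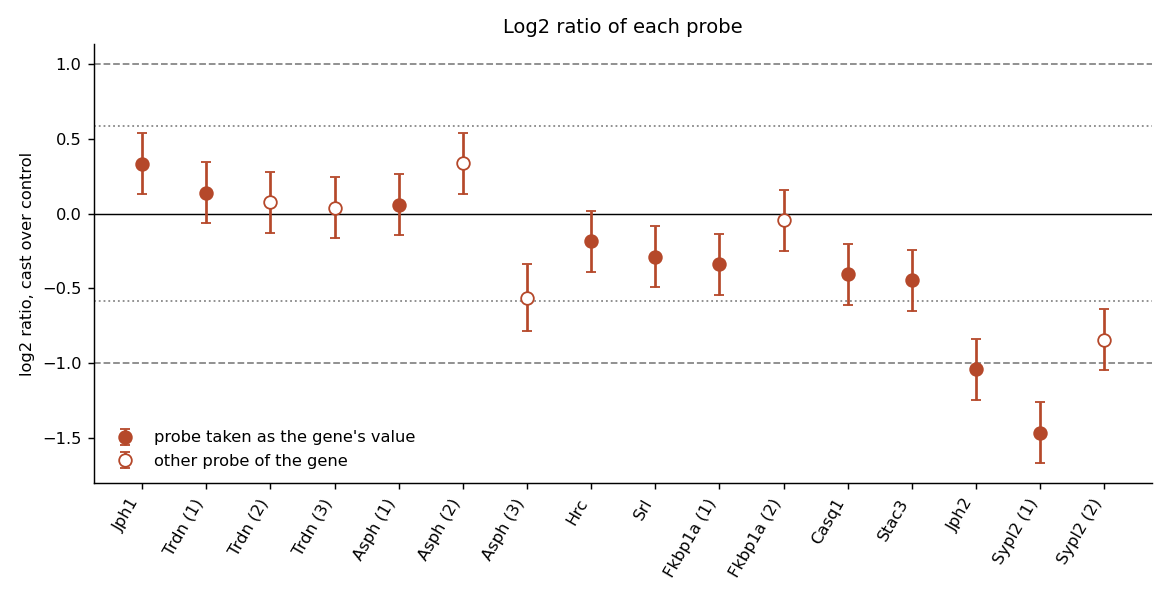
Log2 ratio of cast over control for every probe, in the order of the genes, with bars of 1 SD as the scanner software gives it; filled points stand for the gene, open points are its other probes, and the dotted and dashed lines mark 1.5-fold and 2-fold. Jph2 and the brighter Sypl2 probe lie beyond the 2-fold line on the lower side, and the 3 Asph probes lie on both sides of 0.

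Set among all measured genes, 1.87% had a lower log2 ratio than Jph2 and 0.608% a lower one than Sypl2, while 17.7% had a higher one than Jph1. Jph2 and Sypl2 were the 2 of 10 genes at least 1.5-fold lower in cast muscle, and 8.21% of all measured genes were that much lower. The same 2 were at least 2-fold lower, against 2.09% of all genes. That count was 1 with median scaling, spike-in scaling or no scaling, and 0 with normexp background correction. None of the 10 was at least 1.5-fold or 2-fold higher, against 7.06% and 2.23% of all genes. Among the 5299 genes at least as bright as the dimmest of the 10, 6.55% were at least 1.5-fold lower and 1.59% at least 2-fold lower, and 7.19% and 1.7% were that much higher.

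Of the 10 genes 7 lay below 0 and 3 above, and of all measured genes 52.9% lay below 0 and 47.1% above. Their median log2 ratio was -0.31, and that of all genes was -0.03. It was 0.024 without scaling and 0.035 with spike-in scaling, where the median of all genes was higher as well. The 10 genes were picked with earlier results of these arrays known, so these counts describe the genes and were not tested.

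**Figure D3:**
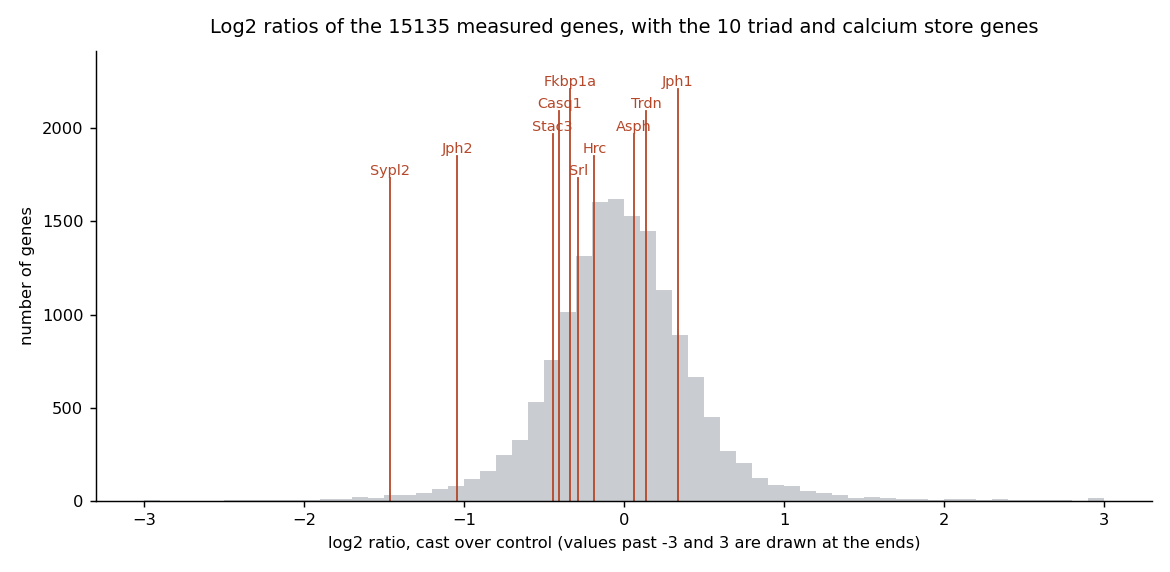
Histogram of the log2 ratios of cast over control of all 15135 measured genes (grey), with a named line at each of the 10 genes. The most extreme values are drawn at the ends of the axis. Jph2 and Sypl2 lie in the lower tail and the other 8 lie nearer the middle.

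The signs of the small differences depend on how the arrays are brought to one scale. With the 75th percentile the median of all genes was -0.03, and it was 0.32 when the arrays were scaled on 7 spike-in controls and 0.31 with no scaling, shifts of 0.35 and 0.34. Jph1 and Trdn lay above 0 in all 13 settings, and Casq1, Stac3, Jph2 and Sypl2 below 0 in all 13. Hrc and Srl turned above 0 with spike-in scaling, at 0.16 and 0.06, and without scaling, at 0.15 and 0.05. Fkbp1a was at 0.0096 with spike-in scaling. Asph lay below 0 with quantile scaling, cyclic loess scaling and the mean of probes, at -0.03, -0.0072 and -0.06.

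Among all genes the split at 1.5-fold was 1069 higher and 1243 lower with the 75th percentile, 1432 and 949 with median scaling, 3589 and 405 without scaling, and 3703 and 392 with spike-in scaling. At 2-fold it was 338 higher and 317 lower, and 403 and 255, 832 and 120, and 861 and 118 in those same 3 settings. Relative to the median of all genes, Jph2 and Sypl2 were lower in each of these.

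**Figure D4:**
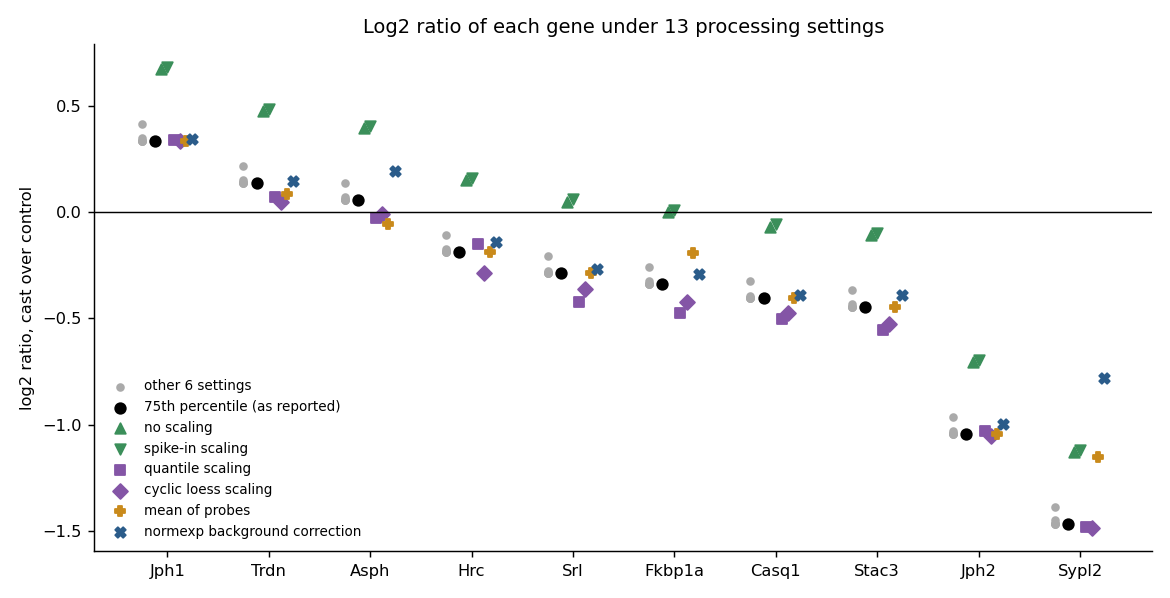
Log2 ratio of each of the 10 genes in each of the 13 settings (one marker per setting, the reported value in black). Every marker of Jph2 and Sypl2 lies below -0.6 and every marker of Jph1 above 0.3, while Asph, Hrc, Srl and Fkbp1a have markers on both sides of 0.

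Relatives of these genes give a second view. Of 9 paralogues, 5 were measured on both arrays and all 5 lay below 0, with a median of -0.31. Casq2, the calsequestrin of heart and slow fibres, had a relative signal of 0.827 in cast and 1.62 in control muscle, a log2 ratio of -0.97, and it lay below 0 in all 13 settings. Sypl, the widely expressed relative of Sypl2, had 17.4 in cast and 20.8 in control muscle, a log2 ratio of -0.26. Asphd2, a relative of the hydroxylase, was at -0.31, Stac, the adaptor's relative, at -0.34, and Fkbp1b, the FKBP that prefers the heart's release channel, at -0.02. Asphd2, Stac and Fkbp1b were dim, with relative signals from 0.0747 to 0.236 and a spot-level SD of 0.15. Fkbp1b lay within that SD, and above 0 in 5 of the 13 settings.

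Among the junctophilins of nerve cells, Jph3 was well above background on the control array only, with 0.0318 in cast and 0.0478 in control muscle. With the 75th percentile it was at least 1.13-fold lower on the cast array. This bound lies near the detection limit, which was 20.6 on the cast array and 13.1 on the control array, and was not computed in other settings. Jph4, Stac2 and Asphd1 had no probe well above background on either of the arrays. Unscaled and spike-in scaled values put the median of the 5 above 0, at 0.03 and 0.04, and Sypl, Asphd2, Stac and Fkbp1b each reached above 0 in at least 1 setting.

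The voltage sensor's main subunit and the release channel differed little between the arrays, while the sensor's gamma subunit, Cacng1, was higher in cast muscle. Cacna1s, the voltage sensor's main subunit, had a relative signal of 338 in cast and 340 in control muscle, a log2 ratio of -0.01, and Ryr1 had 141 in cast and 131 in control muscle, a log2 ratio of 0.11. Of the 14 genes of the sensor and the channel, all measured, 7 lay above 0 and 7 below, with a median of -0.0028. Of them 2 were at least 1.5-fold higher and none lower. Rrad, a small GTPase that holds back calcium channels, had 0.784 in cast and 0.124 in control muscle, a log2 ratio of 2.65, or 1.75 with normexp background correction. Cacng1, that gamma subunit, was 3.15-fold higher in cast muscle, with 48.1 in cast and 15.3 in control muscle. The lowest was Rem1, another such GTPase, at -0.34. The median of this list was 0.33 without scaling and 0.35 with spike-in scaling. It was between 0.0011 and 0.08 with median and quantile scaling, normexp and the deposited table. With cyclic loess scaling it was -0.11, and with the mean of probes -0.06.

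Genes that shape and keep up the tubule and the triad were mostly on the higher side. Of 18 measured, 13 lay above 0 and 5 below, with a median of 0.24 that stayed above 0 in all settings, between 0.16 and 0.59. None was 1.5-fold apart in either direction. The highest was Cavin4, a caveolar coat protein of muscle, with 31.8 in cast and 21.3 in control muscle, a log2 ratio of 0.58. The lowest was Cav3, the muscle caveolin, with 20.1 in cast and 26.6 in control muscle, a log2 ratio of -0.41.

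In the rest of calcium handling Sln was far higher in cast muscle, and the other measured genes differed by less than 2-fold. Of the pump and its regulators 3 of 7 were measured. Sln, sarcolipin, the pump's small inhibitor, had 152 in cast and 2.35 in control muscle, a log2 ratio of 6.01. Atp2a2, the pump of slow fibres and heart, had 4.19 in cast and 7.19 in control muscle, a log2 ratio of -0.78, and Atp2a1, the pump of fast fibres, was at -0.04.

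Of 12 measured genes of store-operated entry and leak, 4 lay above 0 and 8 below, none was 1.5-fold apart, and the median was -0.14. They ran from the entry channel Orai2 at 0.50 to the inositol trisphosphate receptor Itpr1 at -0.58. Of 10 calcium-binding chaperones of the endoplasmic reticulum, 3 lay above 0 and 7 below, with a median of -0.05. Canx, calnexin, was the one at least 1.5-fold higher, with 16.2 in cast and 10.2 in control muscle, and the lowest was Rcn1, reticulocalbin, at -0.58. Unscaled and spike-in scaled values put the medians of both lists above 0, at 0.20 and 0.21 for entry and leak and at 0.29 and 0.30 for the chaperones, whose median was also above 0 with median scaling, at 0.03.

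**Figure D5:**
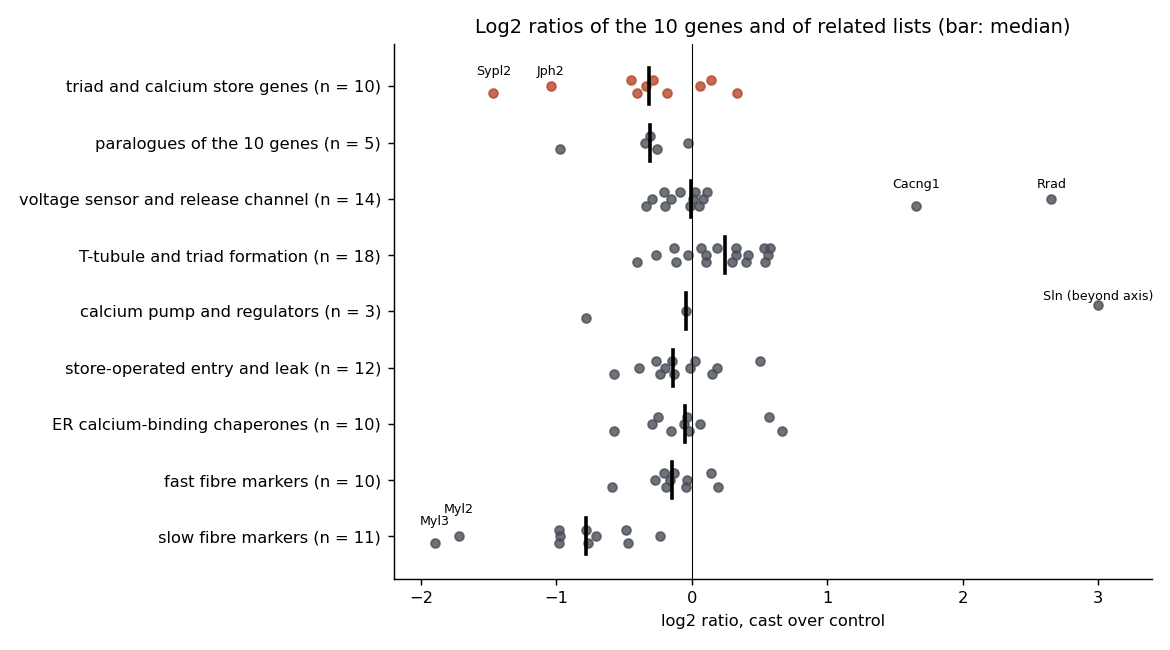
Log2 ratio of cast over control for the 10 genes and for each related gene list, one point per measured gene and a bar at the median; Sln, at 6.01, is drawn at the right edge. The 10 genes and the paralogues have medians below 0, the tubule and triad list lies mostly above 0, and the slow fibre markers all lie below 0.

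Markers of fibre type moved beside these values. Levels of different probes are not comparable, so the sums given here and for other markers below follow the brightest genes of a list. All 11 slow fibre markers lay below 0, with a median of -0.78, which ranged from -0.89 to -0.43 over the settings, and a summed relative signal of 261 in cast and 554 in control muscle. Of them 8 were at least 1.5-fold lower, namely the light chains Myl3 (-1.90) and Myl2 (-1.72), the heavy chains Myh7b (-0.98) and Myh7 (-0.77), the troponins Tnni1 (-0.98) and Tnnc1 (-0.71), and Casq2 and Atp2a2, given above. Of 10 fast fibre markers, 2 lay above 0 and 8 below, with a median of -0.15 and sums of 3712 in cast and 4165 in control muscle. They ran from the fast actinin Actn3 at 0.19 to fast troponin I, Tnni2, at -0.59, the one at least 1.5-fold lower. The fast median was above 0 in 3 settings, at 0.19 without scaling, 0.20 with spike-in scaling and 0.03 with quantile scaling. The part of fibre type in the values of Jph2, Sypl2 and Casq1 was not tested.

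The tissue label was checked with 6 defining genes of skeletal muscle, all measured, with sums of 1908 in cast and 2353 in control muscle. Of them 5 lay below 0 and 1 above, and the median was -0.24. Skeletal actin (Acta1) had 442 in cast and 643 in control muscle, creatine kinase (Ckm) 380 in cast and 491 in control muscle, and desmin (Des) 81.1 in cast and 48.7 in control muscle. Of 6 fibroblast markers, all lay below 0 and 4 were at least 1.5-fold lower, with sums of 131 in cast and 224 in control muscle. The 6 tendon markers had a median of -0.96, with 4 at least 1.5-fold lower, of which 3 were 2-fold lower or more, and the other 2 above 0. Their sums were 38.4 in cast and 39.5 in control muscle. The 5 measured fat cell markers summed to 85.7 in cast and 95.03 in control muscle, with 4 below 0, and the 6 endothelial markers to 15.3 in cast and 18.3 in control muscle, with 4 below 0. The 6 Schwann cell markers summed to 9.45 in cast and 9.43 in control muscle, with 3 below 0, and the 4 measured macrophage markers to 6.62 in cast and 6.09 in control muscle, with 1 below 0.

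Jph2 and Casq2 are also genes of heart muscle. Of 6 heart markers 2 were measured on both arrays, and Tnni3, Myl7 and Ryr2 had no probe well above background on either of the arrays. The 2 heart markers that were measured had log2 ratios of 0.17 and -0.37, and they summed to 0.594 in cast and 0.740 in control muscle. The part of fibroblasts and other cells in the 10 genes' values was not tested.

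The region around the start site was in the RefSeq table (GRCm38.p6) for 5 of the 10 genes, namely Casq1, Fkbp1a, Hrc, Jph2 and Sypl2, as 250 bases before the start site and 50 after it. The promoters of Jph2 and Sypl2, the genes with the largest differences, are given 5′ to 3′ on the gene's strand with CAGCTG in capitals. Jph2 lies at chr2:163397944-163398243 and Sypl2 at chr3:108226550-108226849, both on the minus strand.
Jph2 promoter: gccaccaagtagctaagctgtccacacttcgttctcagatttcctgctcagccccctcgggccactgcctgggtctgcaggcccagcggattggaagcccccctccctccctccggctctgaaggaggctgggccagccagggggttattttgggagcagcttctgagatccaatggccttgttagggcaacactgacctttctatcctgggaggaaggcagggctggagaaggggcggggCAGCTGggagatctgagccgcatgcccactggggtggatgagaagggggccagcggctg
Sypl2 promoter: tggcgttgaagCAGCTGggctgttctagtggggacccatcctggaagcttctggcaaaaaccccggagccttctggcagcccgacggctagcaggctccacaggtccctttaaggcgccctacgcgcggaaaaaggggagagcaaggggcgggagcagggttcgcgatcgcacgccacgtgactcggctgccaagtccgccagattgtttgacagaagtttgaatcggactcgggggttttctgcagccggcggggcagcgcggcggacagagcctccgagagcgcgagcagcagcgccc

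CAGCTG, a form of the E-box CANNTG that myogenic factors can bind and the same on both strands, was found in all 5 promoters and in 16.1% of the 27025 promoters of the table. It was singled out after the promoters had been searched, and a match is no proof of a binding site. Its first base lay 9 bases before the start site in Jph2 (-9), and at -22 in Hrc, -32 in Fkbp1a, -195 in Casq1 and -239 in Sypl2. The log2 ratios of these 5 genes were all below 0, and Jph1, Trdn and Asph, above 0, were not among them. A link between the motif and the log2 ratios was not tested. CANNTG was in all 5 as well, and in 72.1% of all promoters. CACGTG, another form of it, was in 1 of the 5, Sypl2, and in 7.24% of all. The letters TATAAA and CATTCC, searched on both strands, were in none of the 5, and in 14.2% and 14.6% of all, and the MEF2 and CArG box motifs were in none of the 5, and in 3.26% and 1.57% of all.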

How the data were processed

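RNA of cast and control gastrocnemius, 1 pool each, was read on 1-colour Agilent arrays. The authors used Agilent Feature Extraction 9.5 according to the submitters' processing notes. The processed intensity is, per the file headers, background-subtracted and detrended within the array and not scaled between arrays. The deposited table of the series holds linear intensity as well, proportional to the processed signal and scaled so that the 75th percentile of the 44397 spots is the same on both arrays, with 54.9% of values rounded to whole numbers and medians of 8.70 for cast and 9.0 for control.

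From the intensity, log2 values were computed, replicate spots averaged, control spots left out, and likewise spots with non-uniformity flags (9 on the cast array, 2 on the control array) or population outlier flags (117 and 112). Each array's 75th percentile over non-control probes was subtracted. Of 39429 probes, 22375 were well above background on the cast array and 23905 on the control array, and 0 spots were saturated. A gene needed a probe well above background, on more than 0.5 of its spots, on each array, and the probe with the highest mean signal stood for it. Where only 1 array measured a gene, its fold is a bound against the higher of the other array's lowest signal well above background and the dim probe's own. Names came by accession from RefSeq (26055 probes), otherwise from the array; 6618 probes had no symbol.

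No test was possible with 1 array per group. The text names all 10 genes with every probe, all paralogues, Ryr1 and Cacna1s, and of each related list the genes 1.5-fold apart or else the highest and lowest; for markers of other cells than muscle it gives counts and sums. The genes and lists were chosen with earlier results of these data known. The 16 lists hold 141 entries, and 5 genes are in more than 1. In all, 12 alternatives were run, with scaling, background correction (normexp, offset 50), filter, probe rule, names and source of values changed one at a time. Analyses used Python 3.11.15, numpy 2.4.6, pandas 2.3.3, matplotlib 3.10.9, R 4.3.3 and limma 3.58.1, and were tested on simulated data.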

Additional observations from a re-analysis of the deposited data

How the results depend on the processing

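Over 12 alternatives the 2 genes at least 1.5-fold lower in cast muscle, Jph2 and Sypl2, were 2 throughout. Those at least 2-fold lower were 1 with median, spike-in or no scaling (Sypl2) and 0 with normexp, where Jph2 was at -0.998 and Sypl2 at -0.78, because its other probe became the brightest. Jph1 made 1 gene at least 1.5-fold higher with spike-in scaling and without scaling. The median of the 10 genes was -0.45 with quantile scaling, 0.024 without scaling and 0.035 with spike-in scaling. Of all genes, those at least 1.5-fold higher were 1985 without a filter on dim probes, 3589 without scaling and 3703 with spike-in scaling. Those 1.5-fold lower were 2718, 405 and 392 in the same settings, and 680 with normexp. At least 2-fold higher were 763 without a filter, 832 with no scaling, 861 with spike-in scaling and 185 with normexp. At least 2-fold lower were 876, 120, 118 and 149 in those settings, and 534 with detection on at least 1 array. No paired analysis was possible because each group is 1 pooled array, and leaving out a replicate was not possible for the same reason. The number of arrays limits the precision, and the lowest signal well above background was 20.6 on the cast array and 13.1 on the control array.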

Other observations

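One more probe is described in the files as FKBP1A but carries a transcript identifier as its name, so it was not counted among the 16. It had a relative signal of 2.46 in cast and 3.56 in control muscle, a log2 ratio of -0.53, and was well above background on both arrays. Its log2 ratio lies below those of the 2 named Fkbp1a probes, -0.34 and -0.05.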
